A study of Mus musculus with 30 samples.

Results

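Stroma of the bone and lung niches colonised by Brx50, a circulating tumour cell (CTC) line, was compared in 7 of the 30 mouse RNA-seq libraries of the series. They were taken by their labels alone: 4 libraries from bone and 3 from lung. CTCs are tumour cells shed into the blood, and Brx50 is 1 of the CTC lines the series used. For both groups, 100000 Brx50 cells carrying GFP and luciferase had been put into the left ventricle of the heart of female NSG mice 6-8 weeks old that carried estrogen pellets, and 50000 sorted cells without GFP were taken per library for total RNA. The sorted cells are therefore whatever mouse cells the tissue around the tumours held. NSG mice lack mature T, B and NK cells. As a reference, 3 bone and 2 lung libraries came from tumour-free mice. The sources used here do not say whether those mice carried estrogen pellets, or which bone was taken for the Brx50 or the tumour-free libraries. Nor do the labels tie each library to a mouse of its own, so the p-values reflect the spread among the sequenced libraries, which may in part be technical.

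Bone and lung are both frequent sites of breast cancer metastasis and offer a tumour cell very different neighbours. In bone, osteoblasts lay down a collagen matrix and mineralise it, osteocytes and osteoclasts remodel it, and marrow produces neutrophils, red cells and other blood cells. In lung, alveolar type 1 cells form the thin gas exchange surface, alveolar type 2 cells secrete surfactant, a dense capillary bed runs beneath them, and resident alveolar macrophages clear the air spaces.

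Totals ran from 7309251 to 10313036 counts in Brx50 bone, 11486593 to 14170063 in Brx50 lung, 10625392 to 12989953 in tumour-free bone and 10751803 to 11160784 in tumour-free lung. Levels below are counts relative to the library total (CPM, the scale on which the levels of 1 gene are compared below), listed in the order of replicates 1 to 4 for bone and 1 to 3 for lung. For a gene with no count, counting error alone leaves room for 3 counts, or 0.2117 to 0.4104 CPM in the 7 Brx50 libraries. Libraries of the Brx50 groups varied far more than the tumour-free ones: the biological coefficient of variation was 0.546 within Brx50 bone and 0.536 within Brx50 lung, against 0.134 and 0.115 in tumour-free bone and lung.

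The tissue labels were checked against defining markers. Sftpc, Sftpb, Ager and Scgb1a1, the markers of lung epithelium, were higher in every Brx50 lung library than in any bone library. The bone matrix gene Ibsp stood at 249, 37.1, 16.7 and 23.1 CPM in bone and at 0 in each lung library. The marrow marker Mpo, the myeloperoxidase of neutrophil granules, stood at 0, 599, 469.5 and 2.51 CPM in bone: replicates 2 and 3 were near tumour-free bone at 545 to 745 CPM, and replicates 1 and 4 were at or near 0. Lung replicate 3 stood apart from the other lung libraries. A list of 14 endothelial genes summed to 12103, 10372 and 323 CPM in lung replicates 1 to 3, and the third value was the lowest of all 12 libraries, bone included. Some genes given below as called lost the call without this library. Their adjusted p of edgeR without it is given with their values, in the same paragraph or the next.

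Bone and lung stroma beside Brx50 tumours differed in genes that mark each tissue. In lung, surfactant and other alveolar epithelial genes, the macrophage genes Marco, Cd68 and Adgre1 and the chemokine Ccl17 were higher. In bone, osteoblast, cartilage, skeletal muscle, glial and mucous gland genes were higher, together with the stromal transcription factors Ebf2 and Ebf3 and the pericyte gene Rgs5. Of 16750 genes tested, edgeR's quasi-likelihood test with Benjamini-Hochberg adjustment called 338 (2.02%) at an adjusted p under 0.05. Of these, 262 (1.56%) were higher in bone and 76 (0.454%) higher in lung, and in all 338 the libraries of the groups did not overlap. Groups without overlap were common: in 12% of the tested genes every bone library stood above every lung library, and in 6.78% every lung library stood above every bone library. An unadjusted p under 0.05 was reached by 3406 genes (20.3%). The number of calls rested on single libraries. It was 0 without lung replicate 1, 5 without lung replicate 2, 13 without bone replicate 3, 40 without bone replicate 4 and 211 without lung replicate 3, of which 115 were among the 338. Of the called genes chosen for naming by a fixed rule, 24 kept the call without lung replicate 3 and 27 lost it. limma-voom and DESeq2 called 2226 and 2509 genes, and 335 and 338 of them were among the 338. The median log2 fold change of all tested genes, bone minus lung, was -0.03, and under upper quartile scaling it shifted to 0.15.

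Gene lists of cell types, tissues and pathways (47 lists, 602 genes) were read by their counts and medians. Alveolar type 2 genes had the lowest median of these lists. Of the 12 genes of that list, all tested, 6 were called higher in lung and 0 higher in bone, with a median log2 fold change of -4.96 against -0.03 for all genes. Sftpa1 (chr14:41131782-41136452, GRCm38), which encodes the surfactant protein SP-A, stood at 360.4, 241 and 111 CPM in lung and 0, 0.113, 0.291 and 0 CPM in bone (log2 fold change -11.05, SE 0.901, adjusted p = 0.0100). Sftpc (chr14:70520949-70524081), a surfactant protein gene specific to type 2 cells, stood at 1385, 959.8 and 343 CPM in lung and 1.92, 0.225, 0.194 and 0.7997 CPM in bone (log2 fold change -10.24, SE 1.096, adjusted p = 0.0150). Both genes were lowest in lung replicate 3, which still stood far above every bone library. Lamp3, a marker of the lamellar bodies that store surfactant, stood at 45.9, 30.04 and 6.77 CPM in lung and was at 0 in 3 of 4 bone libraries (log2 fold change -8.78, SE 1.07, adjusted p = 0.0209). Slc34a2, the phosphate transporter of type 2 cells, and Sftpb, needed to form surfactant, had log2 fold changes of -7.11 (SE 1.22) and -8.96 (SE 1.05). Cxcl15, a lung epithelial chemokine, stood at 18.9, 14.02 and 6.77 CPM in lung and at 0, 0.113, 0 and 0 CPM in bone (log2 fold change -8.45, SE 0.89, adjusted p = 0.0150). Without lung replicate 3 the same number, 6 of 12, was called.

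A few alveolar type 1 and airway genes were called higher in lung. Cldn18, a tight junction gene of alveolar cells, stood at 88.6, 53.1 and 24.3 CPM in lung and was at 0 in bone replicates 2 to 4 (log2 fold change -10.49, SE 0.899, adjusted p = 0.0100). Ager, the type 1 cell receptor RAGE, stood at 129, 92.5 and 17.1 CPM in lung and 0.137, 0.113, 0.485 and 0.343 CPM in bone (log2 fold change -8.22, SE 0.82, adjusted p = 0.0150). These were the 2 of 10 type 1 genes that were called, and the list had a median of -2.91. Of 9 club and ciliated cell genes tested, 1 was called: Scgb1a1, the secretoglobin of club cells, at 384, 462 and 15.3 CPM in lung and 0.958, 0, 0.776 and 0 CPM in bone (log2 fold change -9.41, SE 1.59, adjusted p = 0.0365). The airway list had a median of -1.275, and -0.21 without lung replicate 2. Lung replicate 3 held far less of it than the other lung libraries. Nkx2-1, the transcription factor that specifies lung epithelium, stood at 22.5, 17.8 and 3.25 CPM in lung and 0.684, 0, 0 and 0.343 CPM in bone and missed the threshold (log2 fold change -5.91, SE 1.198, adjusted p = 0.0515).

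The RefSeq promoters (assembly GRCm38.p6) of 3 called genes are shown so that the letters near their start sites can be seen: an alveolar gene, an immune gene higher in lung, and a muscle gene higher in bone. Each run is the 250 bases upstream of the start, 5′ to 3′ on the plus strand. Capitals mark CACTTG, the core of NKX2-1 motifs, and TATAAA in Sftpa1 (chr14:41131538-41131787), GAGGAAGT, a PU.1 motif, in Havcr2 (chr11:46454681-46454930), and CAGCTG, an E-box bound by myogenic factors, in Mylpf (chr7:127211358-127211607).
Sftpa1: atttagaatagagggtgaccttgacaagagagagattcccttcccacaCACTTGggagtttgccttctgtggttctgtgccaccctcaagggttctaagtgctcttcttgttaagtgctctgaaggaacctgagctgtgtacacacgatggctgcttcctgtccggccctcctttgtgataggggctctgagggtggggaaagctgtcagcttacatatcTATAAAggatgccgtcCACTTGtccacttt
Havcr2: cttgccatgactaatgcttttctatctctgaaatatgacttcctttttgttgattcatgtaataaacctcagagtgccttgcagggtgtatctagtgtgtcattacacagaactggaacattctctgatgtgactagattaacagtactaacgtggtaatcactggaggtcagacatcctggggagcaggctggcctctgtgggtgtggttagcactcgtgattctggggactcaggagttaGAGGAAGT
Mylpf: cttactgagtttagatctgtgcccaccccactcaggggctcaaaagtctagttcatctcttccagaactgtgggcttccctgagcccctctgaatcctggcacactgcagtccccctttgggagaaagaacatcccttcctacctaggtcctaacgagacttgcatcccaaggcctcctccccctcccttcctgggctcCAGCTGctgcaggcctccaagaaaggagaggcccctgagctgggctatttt
The window of Sftpa1 holds 2 copies of CACTTG and 1 of TATAAA. Of the tested genes, 11984 matched a promoter in the RefSeq table, among them 183 called higher in bone and 54 called higher in lung. Motifs were searched on both strands in the 250 upstream bases. CACTTG occurred in 14.8% of promoters of genes higher in lung, 8.74% of those higher in bone and 9.69% of all. GAGGAAGT occurred in 9.26% (5 of 54: Cyp4v3, Gpr55, Havcr2, Mmp12 and Nostrin), 1.09% and 2.55% in the same order. TATAAA occurred in 16.7%, 10.9% and 7.0%, and TGTGGT, a RUNX motif, in 16.7%, 13.7% and 11%. CAGCTG occurred in 14.8%, 15.3% and 12.3%. A match describes letters and not a bound site.

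Several macrophage genes were higher in lung. Marco, a scavenger receptor of alveolar macrophages, stood at 227, 227 and 3.25 CPM in lung and 0, 0.113, 0.194 and 0.114 CPM in bone (log2 fold change -10.36, SE 1.51, adjusted p = 0.0305). Its level in lung replicate 3 was far below the other lung libraries and above every bone library. It was the 1 of 11 alveolar macrophage genes tested that was called; all 11 had fitted values on the lung side, with a median of -3.58. Of 16 monocyte and macrophage genes 2 were called. Fitted values lay on the lung side for 12 of them and on the bone side for 4, with a median of -1.12. The list summed to 1136, 7617, 6043 and 754 CPM in bone and 7310, 8966 and 5532 CPM in lung, so the groups overlapped. Adgre1, which encodes the macrophage antigen F4/80, stood at 159, 168 and 215 CPM in lung and 38.4, 41.2, 50.03 and 13.5 CPM in bone (log2 fold change -2.49, SE 0.48, adjusted p = 0.0463). Cd68, a lysosomal glycoprotein of macrophages, stood at 292, 271 and 138 CPM in lung and 54.6, 53.5, 53.04 and 25.9 CPM in bone (log2 fold change -2.43, SE 0.41, adjusted p = 0.0359). Bone replicate 4 was the lowest library for both genes.

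Other called macrophage and lysosome genes, named after their values were seen, lay on the lung side. Siglec1, the sialic acid receptor CD169 of tissue macrophages, stood at 384, 189.6 and 396 CPM in lung and 28.6, 44.5, 57.9 and 19.2 CPM in bone (log2 fold change -3.28, SE 0.51, adjusted p = 0.0305). Clec4n, which encodes the C-type lectin dectin-2, stood at 136, 98.7 and 102 CPM in lung and 2.87, 6.53, 7.18 and 1.26 CPM in bone (log2 fold change -4.79, SE 0.605, adjusted p = 0.0219). Havcr2, the receptor TIM-3, stood at 141, 213 and 147 CPM in lung and 19.8, 15.3, 13.1 and 9.71 CPM in bone (log2 fold change -3.65, SE 0.38, adjusted p = 0.0150). For these 3 genes lung replicate 3 lay within or above the range of the other lung libraries, unlike Marco. Lysosomal genes had smaller differences: Lipa, the lysosomal acid lipase, had a log2 fold change of -2.80 (SE 0.35) and Scarb2, a lysosomal membrane protein, -1.76 (SE 0.31). Mmp12, the macrophage elastase, stood at 18.01, 40.05 and 23.6 CPM in lung and 1.92, 0.901, 3.103 and 2.399 CPM in bone (log2 fold change -3.86, SE 0.499, adjusted p = 0.0227). Without lung replicate 3 the adjusted p by edgeR was 0.0526 for Siglec1, 0.0549 for Scarb2 and 0.0861 for Adgre1, and the other called genes of this and the preceding paragraph kept their calls.

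**Figure D1:**
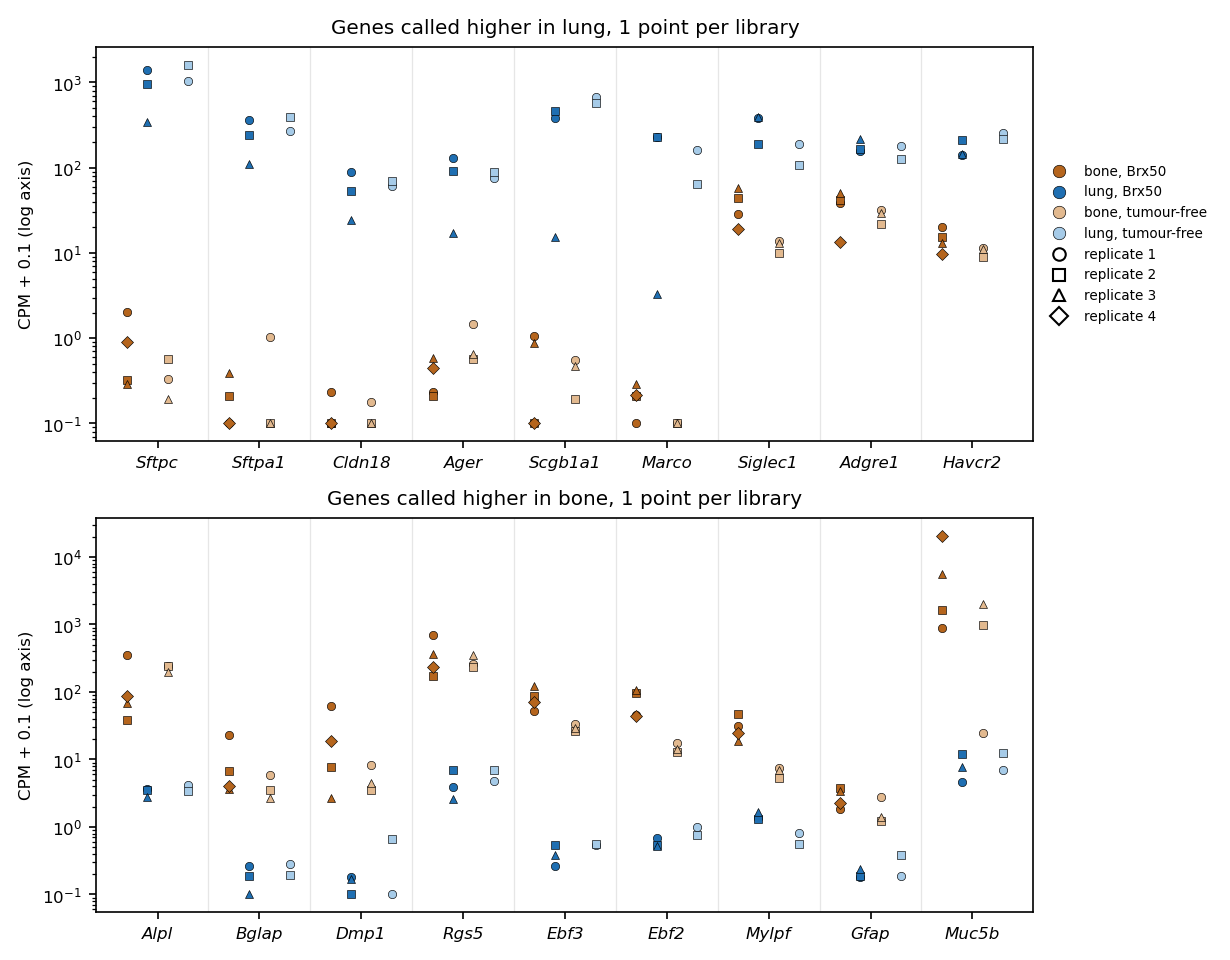
CPM plus 0.1 of 9 genes called higher in lung and 9 called higher in bone, on log axes, with 1 point per library for the Brx50 and tumour-free groups. Groups do not overlap in any of the 18 genes between Brx50 bone and Brx50 lung; Marco at 227, 227 and 3.25 CPM over lung replicates 1 to 3 shows the low value of replicate 3, and Muc5b the wide range within bone.

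Some genes of dendritic cells set lung replicate 3 apart. Ccl17, a chemokine made by dendritic cells that binds CCR4, stood at 8.55, 12.1 and 86.1 CPM in lung and 0.4104, 0.338, 0.679 and 0.571 CPM in bone (log2 fold change -6.38, SE 1.003, adjusted p = 0.0305), and without lung replicate 3 at a log2 fold change of -4.43, adjusted p = 0.0212. Ccr7, the receptor that takes dendritic cells to lymph nodes, stood at 60.3, 65.6 and 2021 CPM in lung and 8.76, 5.74, 10.2 and 2.399 CPM in bone and missed the threshold (log2 fold change -6.999, SE 1.51, adjusted p = 0.0591). Ccl22, another CCR4 ligand of dendritic cells, stood at 48.1, 55.5 and 1787 CPM in lung and 5.199, 4.28, 8.82 and 2.74 CPM in bone (log2 fold change -7.19, SE 1.51, adjusted p = 0.0561). For both genes all lung libraries stood above all bone libraries, and replicate 3 stood far above the other lung libraries. Fscn1, an actin-bundling gene of mature dendritic cells that is also made by other cells, was named after its values were seen. It followed with 80.4, 88.4 and 1968 CPM in lung, but bone at 158, 28.7, 57.1 and 111 CPM overlapped replicates 1 and 2. Of 10 dendritic cell genes 0 were called by edgeR (7 had an unadjusted p under 0.05), with a median of -1.996, and -0.91 without lung replicate 3. The list summed to 829, 798 and 2915 CPM in lung, and Ccr7 alone made up 2021 CPM of the third value. Replicate 3 thus stood apart in the list sum mainly through Ccr7.

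Antigen presentation genes had fitted values on the lung side throughout. All 10 class I genes and all 6 class II genes tested were on that side, with medians of -1.94 and -2.13, and 0 were called (9 and 5 had an unadjusted p under 0.05 by edgeR). Cd74, the invariant chain that guides class II molecules, stood at 1640.4, 1435 and 1980.4 CPM in lung and 174, 335, 689 and 70.7 CPM in bone (log2 fold change -2.597, SE 0.74, adjusted p = 0.113). B2m, beta-2 microglobulin of the class I complex, stood at 852, 969 and 2846 CPM in lung and 354, 710.4, 440.0 and 141 CPM in bone (log2 fold change -2.12, SE 0.73, adjusted p = 0.162). Without lung replicate 3 the median was -0.98 for class I and -1.997 for class II.

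Interferon and hypoxia genes were high in lung replicate 3 alone among the lung libraries. The 18 interferon response genes summed to 1099, 1113 and 7244 CPM in lung and 929.6, 1680.2, 1869 and 1727 CPM in bone, and the 14 hypoxia and glycolysis genes to 1631, 1706 and 10784 CPM in lung and 1691, 1792, 2073 and 1926 CPM in bone. Tumour-free lung stood at 1312 and 1537 CPM for the interferon list and 1702 and 1577 CPM for the hypoxia list, near lung replicates 1 and 2. Irf7, the interferon regulatory factor that amplifies type I interferon, stood at 71.6, 88.4 and 1404 CPM in lung and 58.97, 209, 232 and 56.6 CPM in bone. Aldoa, a glycolytic aldolase, stood at 518, 437 and 3692 CPM in lung and 332, 477, 496 and 204 CPM in bone. Slc2a1, the glucose transporter GLUT1, stood at 47.8, 85.9 and 639 CPM in lung and 64.6, 48.99, 103 and 80.5 CPM in bone. In each of these 3 genes the third lung library stood far above every other library of the comparison. No member of either list was called by edgeR (1 interferon gene and 5 hypoxia genes had an unadjusted p under 0.05). The medians turned from -1.69 and -1.93 with all libraries to 0.54 and 0.303 without lung replicate 3, so no direction between the niches is given for these lists.

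Vascular genes were dominated by the same library. Cdh5, the VE-cadherin of endothelial junctions, stood at 2259, 1727 and 42.7 CPM in lung and 768, 125, 251 and 585 CPM in bone (log2 fold change -1.69, SE 1.099, adjusted p = 0.441). Kdr, the receptor VEGFR2, stood at 1359, 1041 and 46.7 CPM in lung and 692, 109, 267 and 637 CPM in bone (log2 fold change -1.002, SE 1.004, adjusted p = 0.632). Lung replicates 1 and 2 stood above all bone libraries for Cdh5 and Kdr, and replicate 3 stood below all of them. Of 13 endothelial genes tested 0 were called (1 had an unadjusted p under 0.05 by edgeR), with a median of -1.37, and -1.96 without lung replicate 3. In tumour-free mice all 13 endothelial genes tested were called higher in lung, with a median of -1.898. As bulk values, these levels cannot tell fewer cells of a type from less RNA per cell. Nostrin, which binds endothelial nitric oxide synthase and was named after its values were seen, was high in all 3 lung libraries at 76.2, 53.5 and 81.4 CPM, against 3.28, 3.72, 6.303 and 3.77 CPM in bone (log2 fold change -4.22, SE 0.37, adjusted p = 0.0100).

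**Figure D2:**
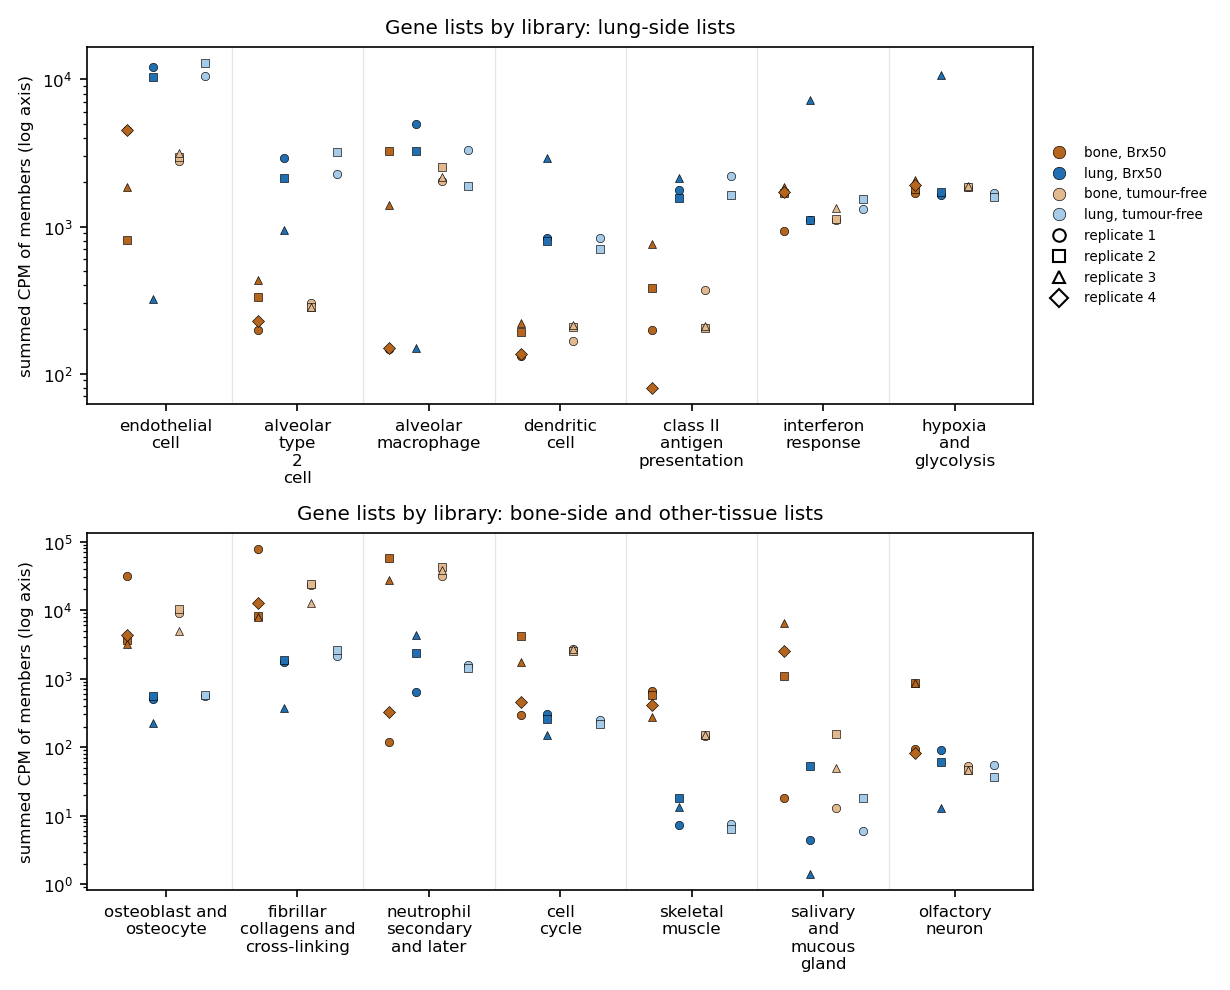
Summed CPM of the members of 14 gene lists on log axes, 1 point per library. Lung replicate 3 (blue triangle) is lowest for endothelial genes and highest for dendritic cell, interferon and hypoxia genes, and bone replicates 2 and 3 stand with tumour-free bone for neutrophil genes while replicates 1 and 4 do not. Of the dendritic cell sum of 2915 CPM in lung replicate 3, Ccr7 alone makes up 2021 CPM.

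Genes of bone-forming cells were higher in bone. Of 15 osteoblast and osteocyte genes tested, 3 were called higher in bone and 0 higher in lung, and 11 had every bone library above every lung library, with a median log2 fold change of 5.09. Alpl, the alkaline phosphatase that lets matrix mineralise, stood at 357, 38.1, 68.9 and 88.1 CPM in bone and 3.52, 3.395 and 2.68 CPM in lung (log2 fold change 5.35, SE 0.96, adjusted p = 0.0419). Bglap, which encodes osteocalcin, stood at 23.1, 6.64, 3.59 and 3.999 CPM in bone and 0.168, 0.0871 and 0 CPM in lung (log2 fold change 6.59, SE 1.23, adjusted p = 0.0452); its near-identical copy Bglap2 makes single values of this gene uncertain. Dmp1, a matrix gene of osteocytes, stood at 61.6, 7.55, 2.62 and 18.5 CPM in bone and 0.0838, 0 and 0.0706 CPM in lung (log2 fold change 8.37, SE 1.58, adjusted p = 0.0454). Bone replicate 1 was highest in all 3 genes. Ibsp, bone sialoprotein, was at 0 in every lung library and therefore at least 1021-fold higher in bone, counted against 3 counts over the lung group, yet missed the threshold at an adjusted p of 0.0543. Without lung replicate 3, 0 of the 15 genes were called (adjusted p of 0.0954 for Alpl, 0.0879 for Bglap and 0.104 for Dmp1), with a median of 4.498.

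Of 11 osteoclast genes tested 0 were called (4 had an unadjusted p under 0.05 by edgeR) and the median was -0.45. Mmp9, the collagenase that osteoclasts and neutrophils secrete, stood at 105, 810.0, 828 and 16.2 CPM in bone and 47.7, 177 and 726 CPM in lung, and the groups overlapped widely. Tnfsf11, the osteoclast-inducing ligand RANKL, stood at 23.5, 1.24, 2.72 and 6.05 CPM in bone and 0, 0.435 and 0 CPM in lung (log2 fold change 5.75, SE 1.63, adjusted p = 0.111). Every bone library stood above every lung library for Tnfsf11. The one called gene of 11 tested in the list of RANK pathway and bone remodelling signals was Sfrp4, a secreted Wnt antagonist, at 149, 24.3, 20.1 and 60.4 CPM in bone and 1.84, 2.61 and 2.19 CPM in lung (log2 fold change 4.73, SE 0.89, adjusted p = 0.0452), and its adjusted p was 0.0998 without lung replicate 3.

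Cartilage genes were higher in bone as well. Of 13 cartilage and joint genes 3 were called higher in bone, all 13 had fitted values on the bone side, and the median was 4.03. Comp, the cartilage oligomeric matrix protein, stood at 524, 40.7, 103 and 54.4 CPM in bone and 1.76, 0.871 and 0.847 CPM in lung (log2 fold change 7.21, SE 1.29, adjusted p = 0.0419). Col9a1, a chain of cartilage collagen IX, stood at 8.07, 2.48, 9.79 and 3.43 CPM in bone and was at 0 in every lung library, at least 74.5-fold higher (adjusted p = 0.0365). Col9a2, another collagen IX chain, stood at 13.8, 13.4, 27.6 and 11.9 CPM in bone and 1.26, 0.871 and 0.0706 CPM in lung (log2 fold change 4.39, SE 0.82, adjusted p = 0.0452). The highest bone library was replicate 1 for Comp and replicate 3 for both collagen IX genes. Without lung replicate 3, 1 of the 13 was called, with an adjusted p by edgeR of 0.0966 for Comp and 0.0561 for Col9a1, and 0 were called without bone replicate 3 or 4.

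All 15 fibrillar collagen and cross-linking genes had fitted values on the bone side, and 12 of them had groups without overlap, with a median of 3.49. Only Col11a1, a minor fibrillar collagen of cartilage and bone, passed the test among these 15, at 557, 75.5, 50.7 and 132 CPM in bone and 0.251, 0 and 0 CPM in lung (log2 fold change 11.05, SE 1.68, adjusted p = 0.0305). Col1a1, the main collagen of bone, stood at 29805, 3203, 2884 and 3791 CPM in bone and 306, 349 and 68.7 CPM in lung (log2 fold change 5.35, SE 1.37, adjusted p = 0.0874). Its level in bone replicate 1 was far above the other 3 bone libraries, which were near each other. The summed level of the 15 genes was 77356, 8128, 7988 and 12569 CPM in Brx50 bone and 23287, 23781 and 12543 CPM in tumour-free bone. Of 20 small proteoglycan and matricellular genes 19 had fitted values on the bone side and 1 was called: Thbs2, a matricellular thrombospondin, at 818, 105, 101 and 307 CPM in bone and 6.95, 10.6 and 2.96 CPM in lung (log2 fold change 5.55, SE 1.06, adjusted p = 0.0461). Neither gene kept its call without lung replicate 3 (adjusted p of 0.062 for Col11a1 and 0.104 for Thbs2). All 18 matrix protease and inhibitor genes had fitted values on the bone side, with a median of 1.699 and 0 called by edgeR (8 at an unadjusted p under 0.05). Basement membrane genes had a median of 0.65 and 0 of 18 called (6 at an unadjusted p under 0.05).

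Stromal and mural genes included the smallest adjusted p among the genes named here. Ebf3 (chr7:137193673-137314445), a transcription factor of marrow stromal cells, stood at 51.9, 86.5, 121 and 70.03 CPM in bone and 0.168, 0.435 and 0.282 CPM in lung (log2 fold change 7.91, SE 0.54, adjusted p = 0.00762). Ebf2, a related factor of skeletal stem cells that also belongs to olfactory neurons, stood at 45.01, 97.3, 108 and 43.98 CPM in bone and 0.587, 0.435 and 0.423 CPM in lung (log2 fold change 7.07, SE 0.56, adjusted p = 0.0100). Ebf1, named after its values were seen, had 154, 79.4, 109 and 255 CPM in bone and 9.30, 10.8 and 1.91 CPM in lung (log2 fold change 4.24, SE 0.705, adjusted p = 0.0359). Bone replicates 2 and 3 were highest for Ebf2 and Ebf3, and these are the libraries that also held the olfactory marker Omp. Omp stood at 1.64, 216, 271 and 2.17 CPM in bone and 1.51, 0.435 and 0.282 CPM in lung. The part of olfactory cells in the Ebf values was not tested. Replicates 1 and 4, where Omp was near its lung level, held Ebf2 at 45.01 and 43.98 CPM and Ebf3 at 51.9 and 70.03 CPM, above tumour-free bone at 12.6 to 17.7 and 26.6 to 33.2 CPM.

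Rgs5 (chr1:169655501-169695813), a regulator of G protein signalling that marks pericytes, stood at 702, 174, 370.3 and 237 CPM in bone and 3.85, 6.79 and 2.47 CPM in lung (log2 fold change 6.32, SE 0.78, adjusted p = 0.0213). It was the 1 of 10 pericyte and smooth muscle genes that was called, and remained so without lung replicate 3 (log2 fold change 6.07, adjusted p = 0.0378). Igf2, the insulin-like growth factor 2, was the 1 of 13 IGF and FGF genes called, at 179, 52.9, 75.2 and 51.6 CPM in bone and 9.38, 6.703 and 4.59 CPM in lung (log2 fold change 3.61, SE 0.62, adjusted p = 0.0381), with an adjusted p of 0.0841 without lung replicate 3. Igf1 stood at 152, 51.4, 30.4 and 94.1 CPM in bone and 8.97, 9.58 and 1.69 CPM in lung (log2 fold change 3.54, SE 0.81, adjusted p = 0.0666). Apod, an apolipoprotein of fibroblasts and Schwann cells named after its values were seen, stood at 722, 170.4, 312 and 298 CPM in bone and 12.9, 10.7 and 8.05 CPM in lung (log2 fold change 5.05, SE 0.67, adjusted p = 0.0262). Cxcl12, the marrow chemokine that binds CXCR4, did not separate the niches: bone stood at 664, 102, 277 and 1312 CPM and lung at 358, 223 and 11.2 CPM (log2 fold change 1.48, SE 1.14, adjusted p = 0.520).

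Blood-forming genes divided the bone libraries among themselves. The 12 later neutrophil genes summed to 118, 56822, 27868 and 327 CPM in bone and 634, 2335 and 4366 CPM in lung, so that bone replicates 1 and 4 stood below every lung library and replicates 2 and 3 stood above. Ltf, which encodes lactoferrin of neutrophil secondary granules, stood at 13.4, 6504, 5723 and 243 CPM in bone and 44.5, 37.5 and 48.6 CPM in lung (log2 fold change 5.98, SE 1.95, adjusted p = 0.144). S100a9, a calcium-binding protein abundant in neutrophils, stood at 32.01, 17889.5, 6728 and 17.7 CPM in bone and 178, 917 and 628 CPM in lung (log2 fold change 3.27, SE 2.12, adjusted p = 0.439). Neither neutrophil list had a called member by edgeR (5 of 7 primary granule genes and 3 of 12 later genes had an unadjusted p under 0.05), and their medians were 5.88 and 2.92. In tumour-free mice all 9 and all 12 tested members were called higher in bone.

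Proliferation genes also varied among the bone libraries. The 19 cell cycle genes summed to 293, 4159.7, 1722 and 460.3 CPM in bone and 309.8, 256 and 149.6 CPM in lung. All 19 had fitted values on the bone side and 7 had groups without overlap, with a median of 3.33. By edgeR 0 were called (14 had an unadjusted p under 0.05). Mki67, the Ki-67 antigen, stood at 54.9, 1872, 675 and 201 CPM in bone and 68.4, 56.6 and 47.4 CPM in lung (log2 fold change 3.47, SE 1.14, adjusted p = 0.146). Bone replicates 2 and 3, which were high for neutrophil genes, were highest for the list sum and Mki67. Replicate 4, which was low for neutrophil genes, also stood above every lung library for both. The part of marrow cells in these values was not tested. Only 2 genes of the erythroid and progenitor lists were called, 1 of 11 and 1 of 12. Klf1, the master factor of red cell precursors, stood at 7.66, 9.798, 10.4 and 3.31 CPM in bone and 0.838, 0.522 and 0.635 CPM in lung (log2 fold change 3.38, SE 0.60, adjusted p = 0.0400). Hlf, a factor of blood stem cells that many other tissues also express, stood at 20.5, 13.6, 21.3 and 40.1 CPM in bone and 4.69, 4.53 and 2.68 CPM in lung (log2 fold change 2.44, SE 0.45, adjusted p = 0.0450). Unlike Mpo, both genes were present in all 4 bone libraries. Their adjusted p without lung replicate 3 was 0.0768 for Klf1 and 0.0865 for Hlf.

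Skeletal muscle genes had the largest share of calls of any list: 8 of 9 tested were called higher in bone, all 9 had groups without overlap, and the median was 5.93. Mylpf (chr7:127208890-127214298), a myosin light chain of fast muscle, stood at 31.3, 46.96, 18.4 and 24.2 CPM in bone and 1.26, 1.22 and 1.55 CPM in lung (log2 fold change 4.33, SE 0.51, adjusted p = 0.0173). Ckm, the muscle creatine kinase, stood at 52.9, 60.5, 30.6 and 31.8 CPM in bone and 0.419, 1.48 and 0.141 CPM in lung (log2 fold change 5.93, SE 0.82, adjusted p = 0.0262). Pvalb, the calcium buffer parvalbumin, stood at 8.76, 10.02, 7.18 and 7.43 CPM in bone and was at 0 in every lung library, at least 105-fold higher (adjusted p = 0.0173). The groups were far apart for all 3 genes, and each bone library held them. The list summed to 666, 568, 279.9 and 409 CPM in Brx50 bone, 147, 151 and 150.4 CPM in tumour-free bone, and 7.37, 17.8 and 13.3 CPM in Brx50 lung, so every Brx50 bone library exceeded tumour-free bone; in the test of that difference against lung, described below, no muscle gene was called. Without lung replicate 3, 5 of the 9 were called, with a median of 5.46. Atp2a1, Mb and Neb, muscle genes named after their values were seen, had log2 fold changes of 5.48 (SE 0.59), 7.64 (SE 0.94) and 4.48 (SE 0.57).

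Several glial genes were higher in bone. Gfap, a filament of glial cells, was low in both niches, at 1.78, 3.72, 3.297 and 2.17 CPM in bone and 0.0838, 0.0871 and 0.141 CPM in lung (log2 fold change 4.39, SE 0.66, adjusted p = 0.0305), with an adjusted p of 0.0538 without lung replicate 3. Drp2 and S100b, which Schwann cells express, were named after their values were seen. Drp2 stood at 90.2, 32.2, 43.7 and 74.6 CPM in bone and 0.503, 0.958 and 0.353 CPM in lung (log2 fold change 6.51, SE 0.64, adjusted p = 0.0149). S100b, a calcium-binding protein, stood at 9.71, 11.4, 11.3 and 10.2 CPM in bone and 0.587, 0.958 and 0.565 CPM in lung (log2 fold change 3.76, SE 0.45, adjusted p = 0.0173). In all 3 genes every bone library stood above every lung library, and S100b varied least among the bone libraries. Snap25, a synaptic protein of neurons, stood at 0, 29.1, 25.99 and 18.1 CPM in bone and was at or near 0 in lung (log2 fold change 7.95, SE 1.99, adjusted p = 0.0825). The glial genes were thus present in all 4 bone libraries, while the neuronal Snap25 was at 0 in replicate 1.

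Several of the largest differences towards bone were genes of mucous and salivary glands. Muc5b, a gel-forming mucin, stood at 897, 1667, 5630.2 and 20506 CPM in bone and 4.52, 11.8 and 7.76 CPM in lung (log2 fold change 9.58, SE 1.58, adjusted p = 0.0359). Muc19, a salivary mucin, stood at 15.2, 35.8, 71.7 and 598 CPM in bone and 0.0838, 0 and 0.0706 CPM in lung (log2 fold change 11.22, SE 1.96, adjusted p = 0.0398). Bpifb2, a secreted protein of the salivary BPI family, stood at 16.4, 53.2, 182 and 485 CPM in bone and 0.168, 0 and 0.0706 CPM in lung (log2 fold change 10.76, SE 1.66, adjusted p = 0.0305). Replicate 1 was the lowest and replicate 4 the highest bone library in all 3 genes. Tumour-free bone held the mucins unevenly as well, with Muc5b at 24.6, 994 and 2028 CPM. Muc19 was the 1 of 5 salivary and mucous gland genes tested that was called; the list's median was 8.65, or 6.05 with the gene that was at 0 in all lung libraries set at its lower bound. None of the 3 genes kept its call without lung replicate 3 (adjusted p of 0.0766 for Muc5b, 0.0901 for Muc19 and 0.0693 for Bpifb2), and 0 genes of the list were then called by edgeR. Other members were high in single bone libraries: Bpifa2 reached 418 CPM in replicate 2 and at most 0.970 CPM elsewhere in bone, and Obp2a, an odorant-binding protein, 329 CPM in replicate 3 and at most 0.338 CPM elsewhere in bone.

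Further markers of other tissues varied between bone libraries. Chga, the chromogranin of endocrine and neuroendocrine cells, stood at 2.33, 88.7, 134 and 78.3 CPM in bone and 0.838, 0.348 and 0.494 CPM in lung (log2 fold change 6.86, SE 1.31, adjusted p = 0.0460). Gh, the growth hormone of the pituitary, was named after its values were seen. It was at 0, 80.6, 39.9 and 159 CPM in bone and 0, 0.0871 and 0 CPM in lung (log2 fold change 10.64, SE 2.44, adjusted p = 0.0670). Stoml3, an olfactory neuron gene, was at 0, 122, 89.8 and 0.457 CPM in bone. Chga and Gh were high in replicates 2 to 4 and low or absent in replicate 1, and Stoml3 was high in replicates 2 and 3 alone. Krt14, a keratin of basal squamous epithelium, stood at 45.6, 24.8, 139.6 and 112 CPM in bone and 0.335, 2.61 and 0.141 CPM in lung (log2 fold change 6.16, SE 1.15, adjusted p = 0.0452), and was higher still in tumour-free bone at 494, 211 and 276 CPM. Agr2, a gene of secretory epithelium and of breast tumours, was the 1 of 12 epithelial genes called, at 2.05, 15.1, 24.9 and 35.9 CPM in bone and 0.251, 0.261 and 0 CPM in lung (log2 fold change 6.62, SE 1.23, adjusted p = 0.0452). Leaving out lung replicate 3 gave an adjusted p of 0.109 for Chga, 0.0735 for Krt14 and 0.0775 for Agr2. The part of other tissues in the bone to lung differences above was not tested.

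Positional genes were read as levels. Of the 16 limb and trunk patterning genes, 3 passed the low count filter. Hoxa10 and Hoxc9, which pattern the hind part of the body and the limbs, were at 0 in all 4 Brx50 bone libraries. In the series, 2 bone libraries of another line, Brx07, have a site in their titles. Hoxa10 stood at 3.70 CPM in the library labelled leg and at 0 in the one labelled skull, and Hoxc9 at 1.40 CPM and 0. Six2, a homeobox gene of head and kidney mesenchyme, stood at 18.3, 5.97, 23.1 and 10.5 CPM in Brx50 bone, at 0.20 CPM in the leg library and at 39.6 CPM in the skull library. Alx4, a homeobox gene of cranial and limb mesenchyme, stood at 38.03, 7.095, 12.99 and 23.9 CPM in Brx50 bone and 22.7, 27.3 and 23.6 CPM in tumour-free bone, against 1.60 CPM in the leg library and 33.0 CPM in the skull library. For Hoxa10 and Hoxc9 the Brx50 bone libraries stood at the level of the skull library, and for Six2 and Alx4 all of them stood above the leg library. Other positional genes did not follow these 4 throughout. Hoxa9 stood at 0, 1.13, 1.65 and 0 CPM in Brx50 bone, 5.71 CPM in the leg library and 0 in the skull library, and Hoxc10 at 0.274 CPM in Brx50 bone replicate 1 and at 0 in the skull library. Shox2, a homeobox gene of limb and head mesenchyme, stood at 23.9, 1.802, 2.42 and 5.48 CPM in Brx50 bone, so that replicates 2 and 3 lay below the leg library at 2.804 CPM. With 1 library per site there is no replicate check. Dlx5, a homeobox gene of skull and limb bone, and Twist1, a mesenchymal factor, were called higher in bone than in lung (7.84, SE 1.08 and 6.25, SE 1.05), the latter with an adjusted p of 0.0727 without lung replicate 3; the head genes were named after their values were seen.

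**Figure D3:**
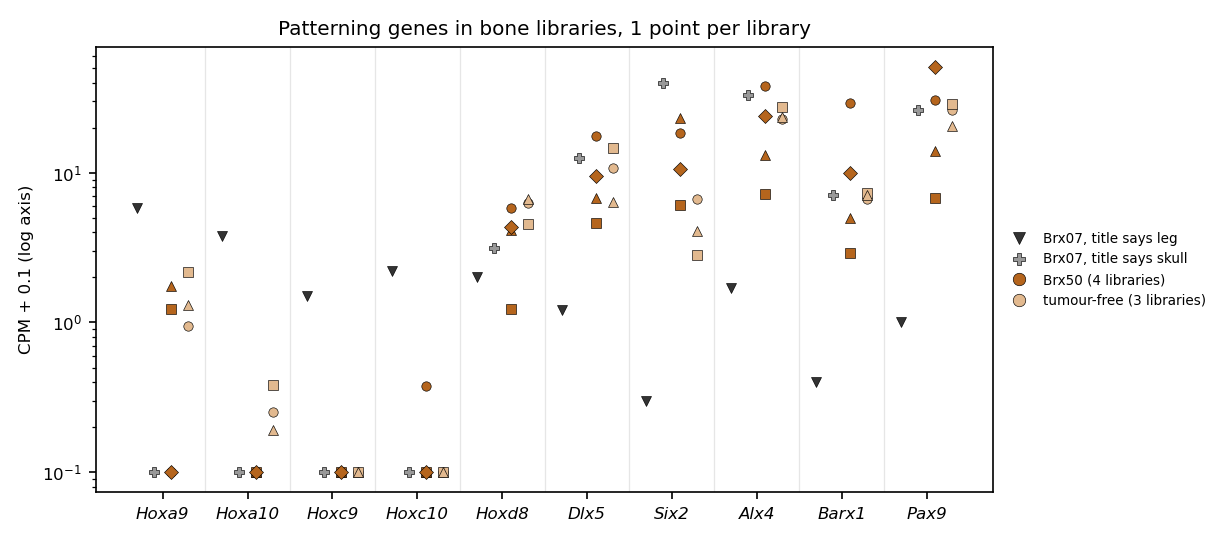
CPM plus 0.1 on a log axis of 5 Hox genes and 5 genes of head mesenchyme in bone libraries: 2 Brx07 libraries with a site in their titles, 4 Brx50 libraries and 3 tumour-free libraries. Hoxa10 is at 0 CPM in all 4 Brx50 libraries and at 3.70 CPM in the leg library.

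Lung patterning genes lay on the other side. Of 18 such genes 12 were tested, and all 12 had fitted values on the lung side, with a median of -3.13 and 0 called by edgeR (8 had an unadjusted p under 0.05). Foxf1, a factor of lung mesenchyme and endothelium, stood at 480.1, 343 and 9.24 CPM in lung and 19.3, 8.897, 7.08 and 23.8 CPM in bone (log2 fold change -4.305, SE 1.08, adjusted p = 0.0831). Lung replicate 3 overlapped the bone libraries for Foxf1. Without it the log2 fold change was -4.89, adjusted p = 0.0218, and 4 of 18 genes tested were called higher in lung.

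Signalling lists mostly gave medians near 0. Medians were -0.14 for 17 BMP genes, 0.19 for 15 TGF-beta genes, -0.54 for 13 Notch genes, -0.44 for 15 VEGF and angiopoietin genes and -0.102 for 20 cytokine genes, with 0 called in each by edgeR and 7, 2, 0, 1 and 7 members at an unadjusted p under 0.05. The medians of the BMP, TGF-beta and cytokine lists changed sign under other settings, so no direction is given for them. Under upper quartile scaling the BMP and cytokine medians did so. Single libraries left out also changed the sign. These were bone replicate 2 or lung replicate 1 for BMP genes, bone replicate 4 or lung replicate 3 for cytokine genes, and bone replicate 1 for TGF-beta genes. Bmpr2, a BMP receptor abundant in lung vessels, stood at 2097, 1638 and 204 CPM in lung and 421, 226, 245 and 507 CPM in bone (log2 fold change -1.99, SE 0.73, adjusted p = 0.182). Il6, the cytokine interleukin 6, stood at 91.5, 106, 52.9 and 156 CPM in bone and 11.1, 15.3 and 35.2 CPM in lung (log2 fold change 2.09, SE 0.58, adjusted p = 0.105). Il1b, interleukin 1 beta, stood at 10.5, 1814, 1468 and 54.5 CPM in bone and 267, 1191 and 906 CPM in lung, so the lung values lay within the range of bone. Of 20 chemokine ligands, 2 were called higher in lung (Ccl17 and Cxcl15); the median of -0.76 became 0.09 without lung replicate 3. Of 13 chemokine receptors 0 were called (3 at an unadjusted p under 0.05). The remaining lists gave 0 called of 11 lung fibroblast genes (median -1.97), 8 megakaryocyte genes (-0.65), 7 mast cell and basophil genes (3.06), 5 lymphocyte genes (0.96) and 15 immediate early genes (0.35), with 4, 0, 4, 0 and 2 at an unadjusted p under 0.05 by edgeR. The called member was Ebf3 among 11 marrow stromal genes (-0.26), Krt14 among 9 squamous genes (4.86) and Ebf2 among 4 olfactory genes (5.61).

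The same tissues in tumour-free mice served as the reference. Of 16782 genes tested there, edgeR called 8388 (50.0%; 56.2% at an unadjusted p under 0.05), 4233 (25.2%) higher in bone and 4155 (24.8%) higher in lung. All 76 genes called higher in lung beside Brx50 were among those called higher in lung in tumour-free mice. Of the 262 genes called higher in bone beside Brx50, 221 (84.4%) were called higher in bone in tumour-free mice, 22 were not called and 19 were not tested. Across the 16095 genes tested in both, the log2 fold changes had a Pearson r of 0.733 and a Spearman rho of 0.584, as a description across genes, which are not independent replicates. The alveolar type 2 list had a median of -8.45 in tumour-free mice against -4.96 beside Brx50, the osteoblast list 4.21 against 5.09, and the skeletal muscle list 4.38 against 5.93.

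**Figure D4:**
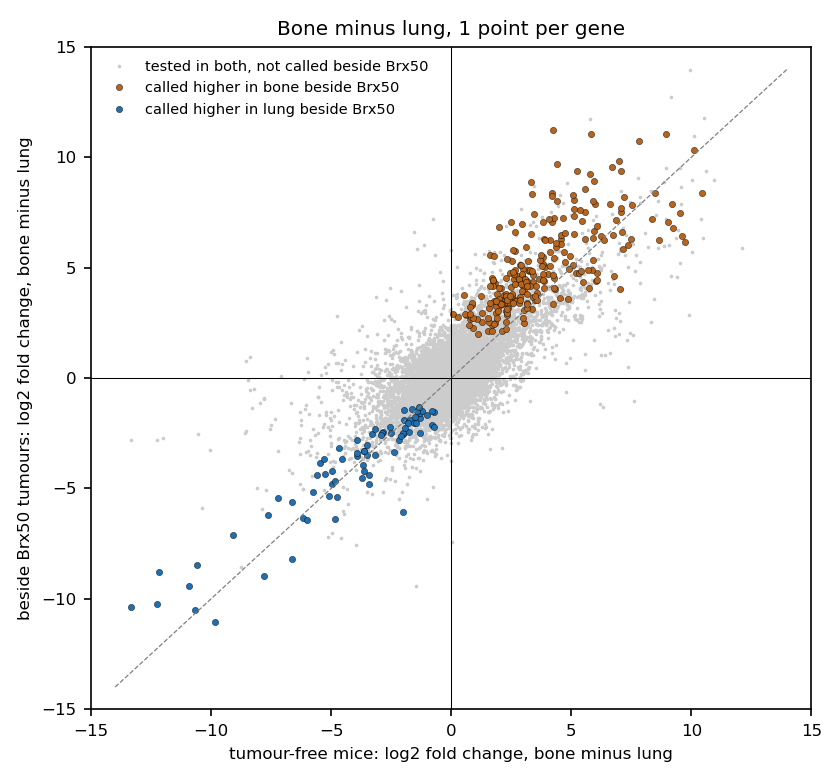
Log2 fold change, bone minus lung, in tumour-free mice (x axis) and beside Brx50 tumours (y axis), 1 point per gene tested in both. Genes called higher in bone (brown) lie mostly at the upper right and genes called higher in lung (blue) in the lower left. The dashed line marks equal values, and some called genes lie far from it. Muc19 lies above it at 4.25 in tumour-free mice and 11.22 beside Brx50, and Krt14 below it at 9.74 and 6.16. Across genes r is 0.733.

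**Figure D5:**
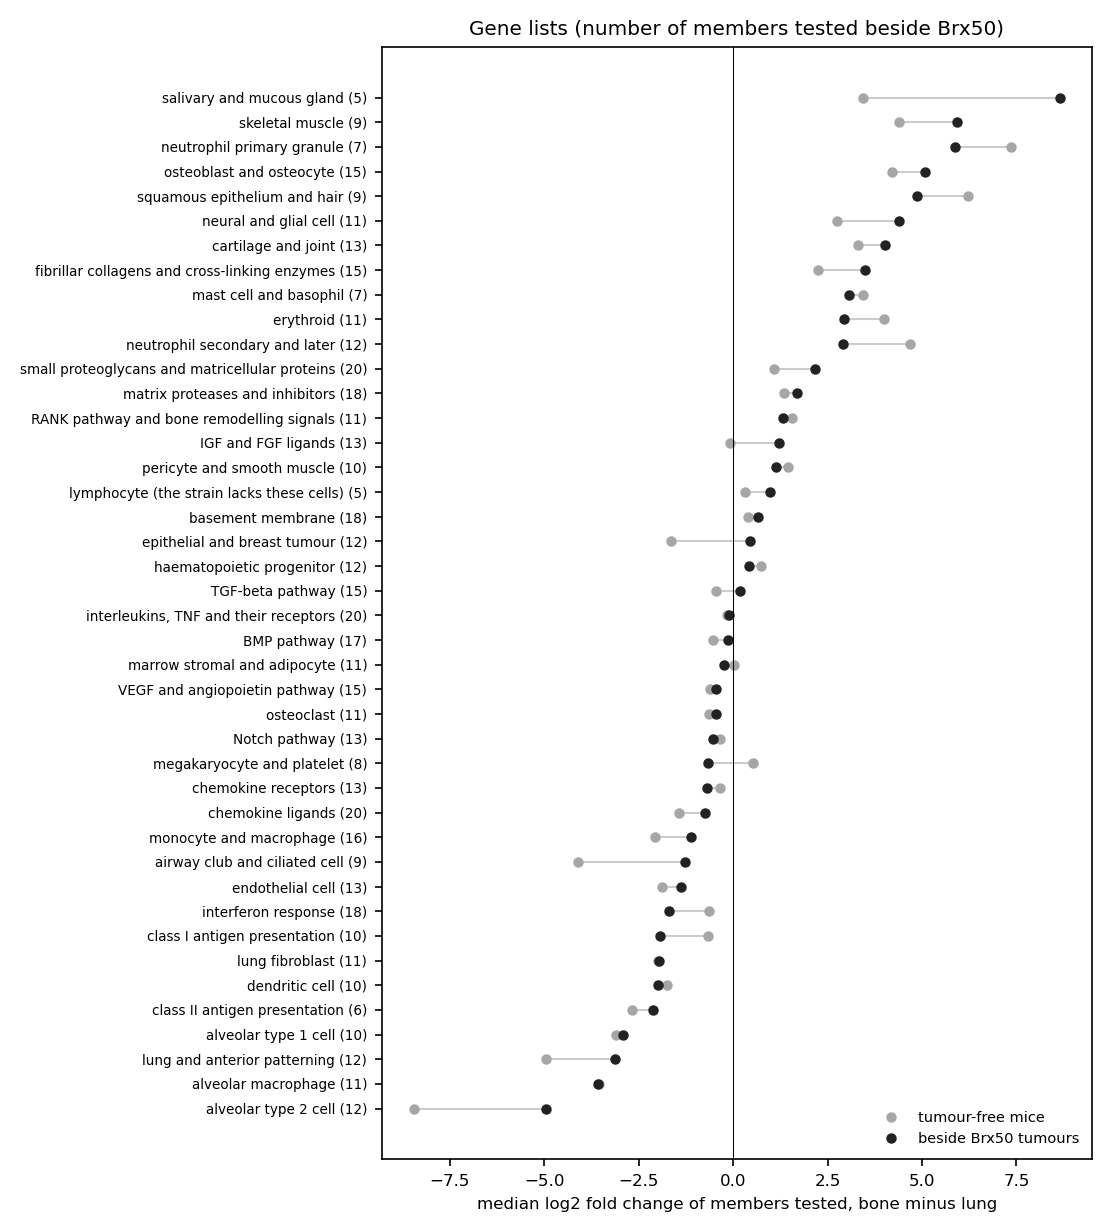
Median log2 fold change, bone minus lung, of the tested members of most gene lists beside Brx50 (black) and in tumour-free mice (grey), ordered by the Brx50 value. The cell cycle, immediate early, hypoxia and glycolysis, limb and trunk patterning and olfactory neuron lists are not shown. The alveolar type 2 list lies lowest at -4.96 and the salivary and mucous gland list highest at 8.65.

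Whether the bone to lung difference itself differed between Brx50 and tumour-free mice was tested as a difference of differences over the 12 libraries. Of 18587 genes, edgeR called 0 (0.0%), with 967 (5.2%) at an unadjusted p under 0.05. On simulated data this test recovered 0% of 2-fold, 1.56% of 4-fold and 36.5% of 16-fold changes. The lack of calls therefore does not show that the differences were the same. limma-voom called 39 and DESeq2 77. The genes nearest to the threshold on the bone side were Mast1, a microtubule-associated kinase, and Tshz2, a zinc finger factor. Mast1 stood at 35.02, 10.6, 21.6 and 20.6 CPM in Brx50 bone, 7.04, 4.61 and 5.08 CPM in Brx50 lung, 4.31, 2.64 and 2.499 CPM in tumour-free bone and 11.7 and 9.86 CPM in tumour-free lung (difference of log2 differences 3.64, SE 0.63, unadjusted p = 0.000133, adjusted p = 0.810). In tumour-free mice it was lower in bone than in lung, and beside Brx50 the fitted value lay on the other side. Tshz2 stood at 13.3, 8.11, 10.1 and 16.1 CPM in Brx50 bone, 0.6703, 0.348 and 0.353 CPM in Brx50 lung, 5.85, 6.21 and 6.11 CPM in tumour-free bone and 1.702 and 1.95 CPM in tumour-free lung (difference 2.83, SE 0.54, unadjusted p = 0.000262, adjusted p = 0.810). Its Brx50 bone libraries all stood above tumour-free bone and its Brx50 lung libraries all below tumour-free lung. Ebf2, described above, had a difference of 2.87, SE 0.62, unadjusted p = 0.000764, adjusted p = 0.859. Chga stood at 0.376 to 0.539 CPM in tumour-free bone and 0.806 to 1.02 CPM in tumour-free lung (difference 7.86, SE 1.54, unadjusted p = 0.000362, adjusted p = 0.859). Ank2, an ankyrin that anchors membrane proteins, stood at 108, 159.7, 229 and 203 CPM in Brx50 bone and 29.7, 31.2 and 33.6 CPM in tumour-free bone (difference 2.63, SE 0.58, unadjusted p = 0.000918, adjusted p = 0.859). Cfap44, a gene of motile cilia, stood at 3.97, 16.8, 21.3 and 29.6 CPM in Brx50 bone and 0.231, 0.188 and 0.185 CPM in tumour-free bone (difference 6.09, SE 1.36, unadjusted p = 0.000943, adjusted p = 0.859).

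On the lung side of that test, mt-Rnr1, the mitochondrial ribosomal RNA of the small subunit, had the smallest p. It stood at 5.75, 5.74, 2.13 and 0.343 CPM in Brx50 bone and 141, 205 and 237 CPM in tumour-free bone, and at 0.587, 1.57 and 0.776 and 0.986 and 1.395 CPM in Brx50 and tumour-free lung (difference -5.58, SE 1.196, unadjusted p = 0.000709, adjusted p = 0.859). The large subunit RNA mt-Rnr2 had 5.88, 8.897, 1.94 and 0 CPM in Brx50 bone and 97.7, 143 and 155 CPM in tumour-free bone (difference -5.38, SE 1.51, unadjusted p = 0.00451, adjusted p = 0.859). The tumour-free bone libraries thus stood apart from all others for both mitochondrial ribosomal RNAs. Aifm2, a flavoprotein that guards against lipid peroxidation, stood at 40.2, 29.4 and 41.9 CPM in Brx50 lung and 20.8 and 20.4 CPM in tumour-free lung, with bone at 13.7, 19.03, 18.7 and 17.8 and 18.1, 19.4 and 20.3 CPM (difference -1.15, SE 0.35, unadjusted p = 0.00718, adjusted p = 0.859). For Aifm2 the Brx50 lung libraries stood above all 9 other libraries of the test. None of these genes passed the adjusted threshold.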

How the data were processed

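The raw count per gene and library was deposited by the authors in 1 table (43346 mouse gene IDs, 30 libraries) and used unchanged. STAR 2.5.2b, HTSeq, mouse builds mm10 and GRCm38.p5 and human builds hg19 and GRCh37 appear in the submitters' processing notes, with no role stated for a build. The annotation, the strand setting and the separation of human from mouse reads were not given in the sources used here, so overlapping and antisense genes cannot be told apart. GENCODE M21 (GRCm38) named 42462 IDs. The 884 others, with 0.132% of counts, were kept for testing. The labels gave the groups. Replicate numbers follow accession order in the Brx50 groups and the labels in the tumour-free groups. Total counts per library run from 7309251 to 14170063 in the 12 libraries used, and the closest pair of a group had a chi-square per degree of freedom of 10.66, so no pair agreed within sampling noise.

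The test was that of edgeR 4.0.16, run in R 4.3.3 (two-sided quasi-likelihood F-test, robust dispersion, TMM scaling, filterByExpr, Benjamini-Hochberg over all genes tested, threshold 0.05). Bone and lung were compared in a fit of the 7 Brx50 libraries, in a fit of the 5 tumour-free libraries, and as a difference of differences in a fit of all 12. The scripts were tested on simulated data. There the fit of the 7 Brx50 libraries recovered 0% of 2-fold, 4.76% of 4-fold and 57.6% of 16-fold changes. A gene or list without calls may therefore still differ. Alternatives were RLE and upper quartile scaling, no count filter, limma-voom (limma 3.58.1), DESeq2 1.42.0, each library left out, a fit of all 30 libraries, a block for the code in the sample title and a test against a 2-fold change. CPM are relative to the unscaled total.

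Genes to name were up to 12 called genes per direction by fold, with non-overlapping groups and a mean of at least 10 CPM, up to 3 called members per list by p (for a list with none, the member with the highest level), and 8 genes per direction with the smallest p in the difference of differences. IDs without a symbol, Gm and Rik genes, pseudogenes and receptor segments were left out. Further genes are marked where named, or belong to the lists. The comparison, its gene lists and this rule were chosen with earlier results of these data known. Some genes that this rule names are not reported here.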

Additional observations from a re-analysis of the deposited data

Results flagged for a closer look

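Among 142 genes examined in the 4 Brx50 bone libraries, 17 had 1 library farther from the others than Dixon's test allows for 4 values. Chance flags about 1 in 20 groups where values follow a normal distribution, which was not checked for these CPM. Genes of 1 tissue move together, so these flags are not independent.

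Bone replicate 1 was the high library in 10 of the 17: Col1a1 at 29805 CPM, Col1a2 at 19037 CPM, Col3a1 at 15885 CPM, Postn at 3537 CPM, Col11a1 at 557 CPM, Comp at 524 CPM, Alpl at 357 CPM, Ibsp at 249.0 CPM, Twist1 at 59.7 CPM and Bglap at 23.1 CPM. All 10 are genes of bone or connective tissue. This library also had the highest share of mitochondrial counts of the 7, at 3.88% against 0.155% to 0.876%. Without this library 327 genes were called, 225 of them among the 338, and calls towards lung fell from 76 to 43. That fall was larger without bone replicate 2, 3 or 4, which left 29, 5 and 12 calls towards lung.

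Bone replicate 4 was the high library for the salivary mucin Muc19 at 598 CPM and the olfactory receptor Olfr78, which is also expressed outside the nose, at 44.6 CPM, and the low library for the macrophage gene Cd68 at 25.9 CPM. Bone replicate 3 was the high library for Obp2a at 329 CPM, Lcn11 at 302 CPM and Col9a2 at 27.6 CPM. Bone replicate 2 was the high library for Bpifa2 at 418 CPM.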

How the results depend on the processing

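The count of 338 called genes (262 higher in bone, 76 in lung) moved with the test and with single libraries. limma-voom called 2226 (1338 and 888), DESeq2 2509 (1910 and 599), the fit of all 30 libraries 1230 (618 and 612) and the test against a 2-fold change 120 (95 and 25). RLE and upper quartile scaling and no count filter called 377, 383 and 471. Leaving out 1 library gave 0 to 327 calls, 0 to 284 higher in bone and 0 to 132 higher in lung. The block for the title code shared by bone replicate 2 and lung replicate 3 (83.2), and by bone replicate 3 and lung replicate 1 (84.2), called 0 (0 and 0) and leaves 1 residual degree of freedom. Deviations from the group means correlated at 0.319 and -0.16 in these pairs, against -0.359 to 0.256 in the other bone and lung pairs. The code 84.2 is also on a bone library of another line, Brx68, and 83.2 on a Brx50 brain library. With 2 pairs, whether the codes pair the libraries cannot be settled. For the difference of differences limma-voom called 39 (37 and 2), DESeq2 77 (72 and 5) and leaving out 1 library 0 to 1 (0 to 1 on the bone side), against 0. Of 705 list medians under all alternatives, 22 changed sign, in 10 lists. For 16 of them, in 6 lists, the median with all libraries lay within 0.5 of 0 (marrow stromal, haematopoietic progenitor, cytokine, BMP, TGF-beta and epithelial genes). The other 6 were of lists with larger medians: the interferon list from -1.69 to 0.51 by limma-voom and, leaving out 1 library, -2.20 to 0.54 (the latter without lung replicate 3); the hypoxia list from -1.93 to 0.17 and -2.45 to 0.30 in the same order; the chemokine ligands from -0.76 to a range of -0.942 to 0.089 with 1 library left out; and the lymphocyte list to -0.14 under the block. The cause was not tested.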

Other observations

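Some called genes outside the lists, chosen after their values were seen, belong to other parts of the tissues. Penk, which encodes the opioid precursor proenkephalin, stood at 21.1, 15.8, 26.8 and 19.9 CPM in Brx50 bone and 1.93, 1.74 and 1.62 CPM in Brx50 lung (log2 fold change 3.404, SE 0.38, adjusted p = 0.0150), with little spread in either group. Dclk1, a kinase of neurons and stromal cells, stood at 39.9, 30.2, 51.1 and 61.01 CPM in bone and 2.43, 2.09 and 3.25 CPM in lung (log2 fold change 3.94, SE 0.42, adjusted p = 0.0150), and Efna5, an ephrin ligand that guides axons, at 34.3, 30.7, 29.5 and 45.2 CPM in bone and 2.85, 2.87 and 1.69 CPM in lung (log2 fold change 3.68, SE 0.37, adjusted p = 0.0149).

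On the lung side, F7, the coagulation factor VII gene, stood at 113, 68.5 and 36.9 CPM in lung and 3.56, 1.69, 1.16 and 2.17 CPM in bone (log2 fold change -5.18, SE 0.56, adjusted p = 0.0150). Upk3b, a gene of mesothelium, stood at 22.96, 20.3 and 5.15 CPM in lung and 0.958, 0, 0.194 and 0.457 CPM in bone (log2 fold change -5.41, SE 0.996, adjusted p = 0.0450). Dpep2, a dipeptidase of macrophages, stood at 43.9, 36.9 and 42.1 CPM in lung and 4.24, 4.84, 5.14 and 3.999 CPM in bone (log2 fold change -3.32, SE 0.301, adjusted p = 0.0107), the same in all 3 lung libraries within a small spread. Il12b, the shared subunit of interleukins 12 and 23, stood at 6.12, 8.97 and 35.1 CPM in lung and 1.37, 1.35, 2.04 and 1.37 CPM in bone (log2 fold change -3.68, SE 0.71, adjusted p = 0.0482), and its adjusted p was 0.0631 without lung replicate 3.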
